A study of Homo sapiens with 6 samples.

Results

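The genes described here encode 6 IGF-binding proteins (IGFBP2 to IGFBP7), the growth factor IGF2, its clearance receptor IGF2R, and the receptor adaptors IRS1 and IRS2. They were chosen by symbol, and all 10 were found among the 20030 genes of the count table. The cells were KGN, a line described as human, granulosa-like and tumour-derived, and RNA was taken 48 h after transfection. Transfection was with siRNA that targets the long noncoding RNA SNHG5 in 3 libraries (genotype labelled SNHG5 knockdown), or with negative control siRNA in the other 3 libraries (genotype labelled WT). The siRNA sequences are not used here, all libraries came from the same line, and the labels do not say whether replicates were separate cultures. The p-values therefore measure the spread between these libraries, which may be technical. SNHG5, the targeted RNA, was not analysed here and its level cannot be given.

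IGF1 and IGF2 are secreted growth factors that act through the tyrosine kinase receptor IGF1R. IRS1 and IRS2 are docking proteins that link that receptor and the insulin receptor to PI3-kinase and AKT. IGF-binding proteins hold the ligands outside the cell and limit or prolong their access to the receptor, and proteases such as PAPPA release the ligand again. In the ovary, granulosa cells make IGF-binding proteins in a pattern that changes as follicles mature, and the IGF system amplifies the action of follicle-stimulating hormone.

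With SNHG5 siRNA, transcripts of IGFBP3, IGFBP4, IGFBP5, IGF2R and IRS1 rose and those of IGFBP2 fell. The largest change was in IGFBP4, 2.37-fold higher (87.5 ± 7.85 CPM with SNHG5 siRNA and 36.9 ± 0.409 CPM with control siRNA, SD, n = 3 each, where CPM is each count scaled to a fixed library size, the same for all libraries). The changes of IGFBP6, IGFBP7 and IRS2 did not pass the test, and IGF2 was too low to be tested. In all, 9 of the 10 genes passed the filter on low counts, and 6 of these were called by edgeR's quasi-likelihood test at an adjusted p under 0.05, 5 higher and 1 lower. Among all 12508 genes tested the same rule called 40.2%, 20.3% higher and 19.9% lower. The median log2 fold change of the 9 genes was 0.28, beside -0.0052 over all genes tested.

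The promoters of the binding proteins that changed are shown first, since IGFBP3, IGFBP4 and IGFBP5 were higher and IGFBP2 lower. RefSeq (GRCh38.p14) gave promoters for 8 of the 10 genes, each from 250 bases before to 50 bases after a start, and among the 3 starts of IGFBP2 the one nearest to the start of its GENCODE transcript was taken. Capitals mark the TATA box word TATAAA and the GC box word GGGCGG, on either strand. The windows are chr17:40443200-40443499 (plus strand) for IGFBP4, chr7:45921223-45921522 (minus strand) for IGFBP3, chr2:216695500-216695799 (minus strand) for IGFBP5 and chr2:216633170-216633469 (plus strand) for IGFBP2.
IGFBP4: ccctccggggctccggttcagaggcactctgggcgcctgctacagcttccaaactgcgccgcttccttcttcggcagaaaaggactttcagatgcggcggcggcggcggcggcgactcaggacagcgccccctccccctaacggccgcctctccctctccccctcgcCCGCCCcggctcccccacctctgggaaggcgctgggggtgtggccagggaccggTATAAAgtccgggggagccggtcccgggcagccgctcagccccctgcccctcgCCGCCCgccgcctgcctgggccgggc
IGFBP3: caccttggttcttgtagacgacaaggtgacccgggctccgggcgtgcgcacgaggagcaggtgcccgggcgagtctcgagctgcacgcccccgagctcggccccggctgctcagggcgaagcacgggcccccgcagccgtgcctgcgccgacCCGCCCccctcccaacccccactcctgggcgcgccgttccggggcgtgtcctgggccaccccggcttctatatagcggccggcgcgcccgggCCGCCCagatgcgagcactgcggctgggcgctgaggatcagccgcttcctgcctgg
IGFBP5: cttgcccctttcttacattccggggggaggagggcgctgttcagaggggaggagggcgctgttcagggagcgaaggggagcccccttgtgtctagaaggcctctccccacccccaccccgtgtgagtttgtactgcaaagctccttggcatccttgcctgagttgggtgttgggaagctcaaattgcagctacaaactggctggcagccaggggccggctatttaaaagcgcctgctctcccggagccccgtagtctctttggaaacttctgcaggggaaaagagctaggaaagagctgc
IGFBP2: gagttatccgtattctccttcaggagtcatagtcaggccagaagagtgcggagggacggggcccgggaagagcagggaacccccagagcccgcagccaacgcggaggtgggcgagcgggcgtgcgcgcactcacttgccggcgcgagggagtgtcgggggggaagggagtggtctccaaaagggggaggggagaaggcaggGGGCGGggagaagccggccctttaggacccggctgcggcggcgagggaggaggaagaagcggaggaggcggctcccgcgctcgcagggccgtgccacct

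Only exact words were searched, so a TATA box or other element of variant sequence was not counted. TATAAA was found in the IGFBP4 window, beginning 29 bases before the start, and in no other of the 8 windows. Of all 34796 promoters in the table, 11.6% held it. GGGCGG was found in 7 of the 8 windows, IGFBP5 being the exception, and in 44.9% of all promoters. The E-box word CACGTG occurred in 2 windows, those of IGF2R and IRS1 (7.20% of all promoters), and CCAAT in 1, that of IRS2 (34.6%). None of these words overlapped another in the windows printed. GC content ran from 59.0% in the IGFBP5 window to 79.3% in that of IRS1. The IGFBP5 window held none of these words, so none could be shared by the 3 windows of the binding proteins that rose.

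The series title names miR-92a-3p, a microRNA whose seed pairs with sites in 3' untranslated regions. Its mature sequence (RefSeq) is shown with the seed, bases 2 to 8, in capitals, followed by the places where members hold the matching word GTGCAAT in an annotated 3' untranslated region (GENCODE v29), with the word in capitals. The IGFBP7 word lies at chr4:57030962-57030968 and the IRS2 word at chr13:109752701-109752707, both on the minus strand.
hsa-miR-92a-3p: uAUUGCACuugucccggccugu
IGFBP7: catcattcgcgGTGCAATactcatagaca
IRS2: aaataaaatcaGTGCAATttg

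The word was found in 2 of the 10 genes, IGFBP7 and IRS2, and in 14.2% of the 12292 tested genes with an annotated 3' untranslated region. The IRS2 word begins 3597 bases after the stop codon in a region of 3606 bases, at its very end. Neither gene was among those called. IGFBP7 had a log2 fold change of -0.08 and IRS2 of 0.18, beside a median of 0.018 over all tested genes with the word and -0.0084 over those without it. The 6 genes that were called held no such word in the annotated regions.

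Total counts ranged from 18232634 to 22088913 per library. The detection floor of 3 counts stood at 0.135 to 0.165 CPM, and floors and counting intervals cover counting error only. SNHG5 siRNA replicate 2 stood apart, since its counts differed from those of its replicates by chi-square values of 8.62 and 8.82 for each degree of freedom, while replicates 1 and 3 differed by 1.91. Its deviation from the group mean had a Spearman correlation of -0.51 with transcript length across 12349 genes, against -0.27 to 0.41 in the other libraries (a description, since genes are not replicates). Of the 10 granulosa markers 8 were tested, and 0 were called higher and 3 lower (FST, FSHR and GATA4). The called share was 37.5%, all lower, beside 40.2% of all genes tested (20.3% higher and 19.9% lower). FSHR, the receptor of follicle-stimulating hormone, had 1.40, 1.16 and 1.85 CPM with SNHG5 siRNA and 3.42, 3.35 and 2.97 CPM with control siRNA. GATA4, a transcription factor of granulosa cells, had 79.5, 83.0 and 84.6 CPM with SNHG5 siRNA and 105.8 to 107.7 CPM with control siRNA. Among the markers not called, FOXL2 had 25.8, 33.6 and 26.4 CPM with SNHG5 siRNA and 26.9, 24.1 and 25.0 CPM with control siRNA. NR5A1 had 38.0, 38.2 and 39.1 CPM with SNHG5 siRNA and 35.6, 37.1 and 35.0 CPM with control siRNA. AMH had 14.2, 13.3 and 12.1 CPM, against 13.3, 12.6 and 11.4 CPM, in the same order. INHBA had 56.2, 56.4 and 61.6 CPM, against 60.0, 55.6 and 62.7 CPM. WT1 had 0.316, 0.553 and 0.463 CPM, against 0.733, 0.690 and 0.770 CPM. INHA and CYP19A1 stayed below 1 CPM. The summed level of the 10 granulosa markers was 511 to 556 CPM with SNHG5 siRNA and 1031 to 1120 CPM with control siRNA, a gap made mainly by FST (295 to 329 and 789 to 876 CPM). The theca markers CYP17A1, LHCGR and INSL3 were at 0 in every library. The sums for the other types were 20.8 to 24.8 CPM with SNHG5 siRNA and 29.4 to 30.3 CPM with control siRNA (epithelial), 25.5 to 29.0 and 29.4 to 32.0 CPM (stromal fibroblast), 27.3 to 29.0 and 22.2 to 26.2 CPM (immune), and 1.41 to 2.27 and 1.70 to 2.10 CPM (endothelial), in the same order. The part of these differences in the results below was not tested.

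IGFBP4 (chromosome 17, 40443461 to 40457731, plus strand, protein coding) encodes a binding protein that mostly blocks IGF action and is cut by the protease PAPPA. It had 81.4, 96.3 and 84.6 CPM in SNHG5 siRNA replicates 1, 2 and 3, against 36.4, 37.1 and 37.1 CPM in control siRNA replicates 1, 2 and 3. Every SNHG5 siRNA library stood well above every control library, and the control libraries lay close together. Its log2 fold change was 1.25 ± 0.067 (SE; adjusted p = 6.57e-11 in edgeR's quasi-likelihood test, adjusted by Benjamini-Hochberg). It stayed between 1.17 and 1.35 in all 18 alternative settings and was called in each. The lower end, 1.17, was found without SNHG5 siRNA replicate 2, the library with the highest value. In these bulk samples, more cells with the transcript and more transcript per cell cannot be told apart, here and for each gene below.

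IGFBP3 (chromosome 7, 45912245 to 45921874, minus strand) encodes the main carrier of IGFs in blood, which in cell culture also slows growth independently of IGFs. It had 272, 299 and 274 CPM with SNHG5 siRNA, against 161, 181 and 165 CPM with control siRNA. The groups did not overlap, and the highest library of each group was replicate 2. IGFBP3 was 1.67-fold higher, with a log2 fold change of 0.74 ± 0.057 (SE; edgeR, adjusted p = 9.58e-09). This change was also called in all 18 settings.

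IGFBP5 (chromosome 2, 216672105 to 216695525, minus strand) encodes a binding protein that attaches to extracellular matrix. It had the fewest counts of the tested binding proteins, 110, 110 and 103 counts with SNHG5 siRNA, against 64, 68 and 52 counts with control siRNA. In CPM these were 4.97, 5.53 and 5.30 with SNHG5 siRNA, against 3.13, 3.35 and 2.86 with control siRNA. The libraries of the 2 groups were again apart, and the change was 1.69-fold, with a log2 fold change of 0.75 ± 0.15 (SE; edgeR, adjusted p = 4.34e-04). On log2(FPKM + 1) it was 0.29, a scale on which the added 1 exceeds the gene's own level, and with 0.1 added it was 0.70; it was called on both.

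IGFBP2 (chromosome 2, 216632828 to 216664436, plus strand) encodes a binding protein of many tumours and of fetal tissue. It had 9.43, 12.0 and 11.8 CPM with SNHG5 siRNA, against 15.6, 16.7 and 15.1 CPM with control siRNA. It was the single binding protein called lower, at 1.43-fold, with SNHG5 siRNA replicate 1 lowest and no overlap between groups (edgeR, log2 fold change -0.52 ± 0.099 SE, adjusted p = 3.84e-04). The size depended on how the values were scaled. It was -0.37 (edgeR, adjusted p = 0.0048) with the trend on GC content removed, where 40.9% of all genes were called. With limma it was -0.32 (adjusted p = 0.0325) on log2(FPKM + 0.1), where 31.1% were called, and -0.28 on log2(FPKM + 1) with no filter, where 22.8% were called and it did not pass (adjusted p = 0.0758). IGFBP2 had the highest GC content of the 9 tested genes, 67.7% of the transcript, where IGF2R had the lowest, 49.4%. The authors' FPKM divided by CPM was 0.519, 0.533 and 0.496 for this gene with SNHG5 siRNA, against 0.429, 0.446 and 0.476 with control siRNA, so that the 2 deposited tables gave it different changes. For IGF2R the same quotient was 0.0533 to 0.0545 in all 6 libraries.

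IGFBP6 (chromosome 12, 53097436 to 53102345, plus strand), which binds IGF2 in preference to IGF1, had 25.0, 27.5 and 24.8 CPM with SNHG5 siRNA, against 24.0, 23.0 and 20.7 CPM with control siRNA. The groups did not overlap, by a narrow margin, and the log2 fold change of 0.19 (95% interval 0.017 to 0.36) did not pass over all genes (edgeR, adjusted p = 0.0738). It passed in 7 of the 18 settings. These were the 4 that removed a trend on length or GC content (0.21 with the length trend removed, where 46.3% of all genes were called, and 0.31 with the GC trend removed) and the 3 on FPKM (0.33 with 1 added, where 31.3% were called). IGFBP7 (chromosome 4, 57030773 to 57110385, minus strand), a secreted relative that binds IGFs weakly, had 603, 671 and 596 CPM with SNHG5 siRNA, against 639, 672 and 666 CPM with control siRNA. Its groups overlapped through SNHG5 siRNA replicate 2, and its log2 fold change was -0.08 (95% interval -0.19 to 0.028, adjusted p = 0.23). Without that library, where 44.4% of all genes were called, it was -0.13 and passed (edgeR, adjusted p = 0.0077). Exons of IGFBP7 share 270 bases with POLR2B on the other strand, and since strand-specific counting was not stated, reads of the 2 genes there cannot be told apart. The same holds for stretches shared with antisense genes, 94 bases of IGFBP7 (IGFBP7-AS1), 298 bases of IGFBP5 (AC007563.2) and 115 bases of IRS2 (AL162497.1).

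**Figure D1:**
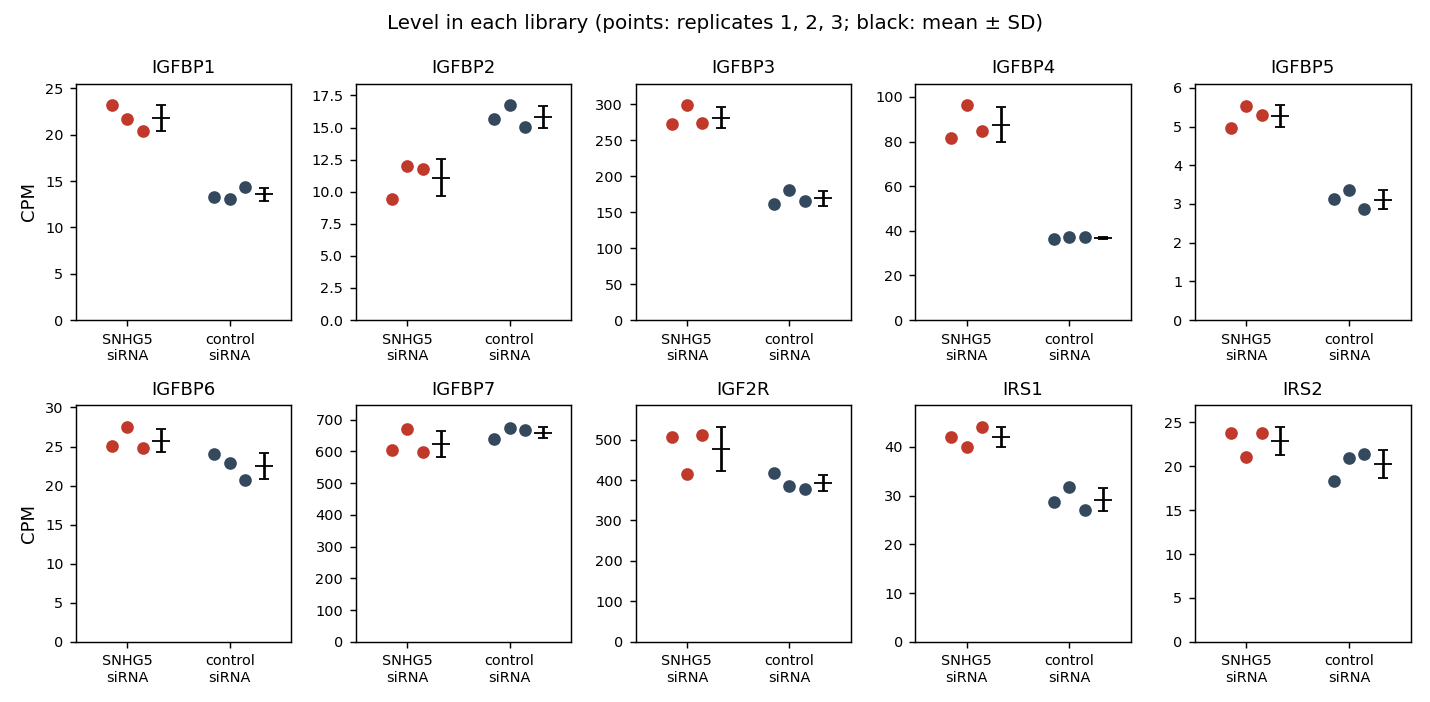
Level of each gene in CPM (vertical axis, from 0) in the 3 SNHG5 siRNA libraries (red) and the 3 control siRNA libraries (grey-blue); points are replicates 1, 2 and 3 from left to right and black marks the mean ± SD. IGFBP4 sits at 81.4 to 96.3 CPM with SNHG5 siRNA and at 36.4 to 37.1 CPM with control siRNA, while IGFBP7, IGF2R and IRS2 overlap between groups.

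For 6 of the 9 tested genes the CPM ranges were separate between groups, 5 higher and 1 lower, against 49.8% of all genes tested (25% higher and 24.8% lower). These were the 4 called binding proteins, IRS1 and IGFBP6.

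IGFBP1, which has no place among the 10 genes and lies beside IGFBP3, encodes a binding protein under control of insulin in the liver. It had 23.2, 21.7 and 20.4 CPM with SNHG5 siRNA, against 13.2, 13.1 and 14.4 CPM with control siRNA. It was 1.61-fold higher, with a log2 fold change of 0.69 ± 0.085 (SE; edgeR, adjusted p = 3.70e-06), and its groups did not overlap. IGFBP1 (chromosome 7, 45888357 to 45893668, plus strand) and IGFBP3 point toward each other across 18576 bases, and both were higher with SNHG5 siRNA. IGFBP2 and IGFBP5 are arranged in the same way on chromosome 2, 7668 bases apart. There the log2 fold changes had opposite signs, -0.52 for IGFBP2 and 0.75 for IGFBP5, and their 95% intervals were -0.73 to -0.31 and 0.45 to 1.06.

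Levels of different genes were compared in FPKM, the authors' values scaled to gene length and library size. IGFBP7 led, at 354, 393 and 358 FPKM with SNHG5 siRNA and 372, 396 and 390 FPKM with control siRNA, and IGFBP3 followed, at 96.7 ± 5.96 FPKM with SNHG5 siRNA and 56.8 ± 3.69 FPKM with control siRNA (SD, n = 3 each). The order of the next genes differed between groups. With SNHG5 siRNA it was IGFBP4 (42.2 to 50.9 FPKM), IGFBP6 (28.4 to 35.8), IGF2R (22.6 to 27.7), IGFBP2 (4.90 to 6.40), IRS2 (4.41 to 4.96), IRS1 (4.11 to 4.67) and IGFBP5 (0.676 to 0.761). Neighbours in that order overlapped for IGFBP2 with IRS2 and for IRS2 with IRS1. With control siRNA it was IGFBP6 (24.0 to 25.3 FPKM), IGF2R (20.2 to 22.4), IGFBP4 (17.0 to 18.9), IGFBP2 (6.71 to 7.47), IRS2 (3.52 to 4.27), IRS1 (2.75 to 3.37) and IGFBP5 (0.385 to 0.428), and no neighbours overlapped. IGFBP4 thus stood above IGFBP6 and IGF2R in every SNHG5 siRNA library and below both in every control library. This order and the shares below rest on FPKM, which were not a fixed multiple of CPM. For IGFBP4 the quotient was 0.518, 0.528 and 0.513 with SNHG5 siRNA, against 0.468, 0.485 and 0.508 with control siRNA.

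As a share of the summed FPKM of the 6 binding proteins, IGFBP7 made up 67.2 ± 0.543% with SNHG5 siRNA and 78.3 ± 0.276% with control siRNA (SD, n = 3 each). IGFBP3 made up 17.6 ± 0.119% and 11.5 ± 0.413%, and IGFBP4 8.28 ± 0.299% and 3.65 ± 0.135%, in the same order. The sum itself was 525, 591 and 530 FPKM with SNHG5 siRNA, against 475, 507 and 496 FPKM with control siRNA. These shares were not tested, and a share of FPKM falls for a gene at constant level when the others rise.

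**Figure D2:**
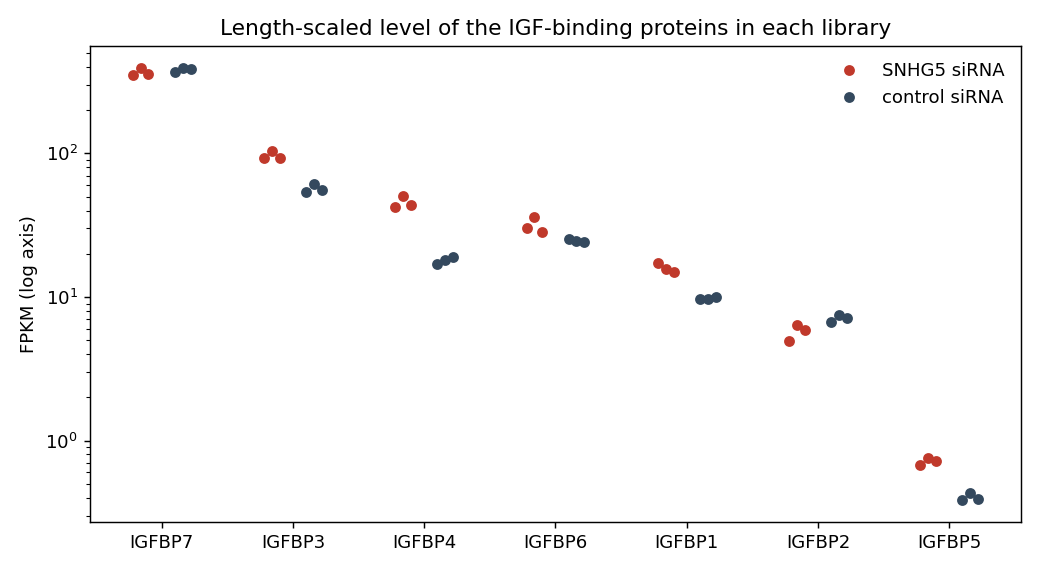
Authors' FPKM (vertical log axis) of IGFBP1 and the 6 other binding proteins in each SNHG5 siRNA library (red) and control siRNA library (grey-blue), replicates 1 to 3 from left to right. IGFBP7 lies highest and IGFBP5 lowest in both groups, and IGFBP4 lies above IGFBP6 with SNHG5 siRNA and below it with control siRNA.

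IGF2, the ligand among these genes (chromosome 11, 2129112 to 2149603, minus strand), had 0, 0 and 1 counts with SNHG5 siRNA, against 0, 2 and 4 counts with control siRNA. Control siRNA replicate 3 alone was above the floor of 3 counts, and no fold is given. Permuting the libraries exactly gave a 2-sided p of 0.4, where the smallest p that 3 against 3 allows is 0.1. INS-IGF2, a readthrough gene that shares exons with IGF2, was at 0 in every library, as were IGF1 and INS, which encodes insulin. A count of 0 allows up to 0.135 to 0.165 CPM in these libraries. IGF2 and INS-IGF2 share 1460 to 1580 exonic bases on the same strand, and how reads there were counted is not given. The floor does not cover any reads left out of both genes.

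IGF2R (chromosome 6, 159969099 to 160113507, plus strand) encodes the mannose 6-phosphate receptor, which takes up IGF2 for breakdown and sorts lysosomal enzymes. It had 506, 415 and 511 CPM with SNHG5 siRNA, against 416, 386 and 378 CPM with control siRNA. SNHG5 siRNA replicate 2 lay within the control range and the other libraries of that group lay above it. IGF2R was 1.21-fold higher, a log2 fold change of 0.28 ± 0.066 (SE; edgeR, adjusted p = 0.00246). IGF2R had the longest transcript of the 9 tested genes, 14044 bases. Its log2 fold change was 0.31 with the length trend of each library removed and 0.37 without replicate 2, both called, and it did not pass on log2(FPKM + 1) with no filter (0.28, adjusted p = 0.0632).

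IRS1 (chromosome 2, 226731317 to 226799759, minus strand) had 42.1, 40.0 and 44.1 CPM with SNHG5 siRNA, against 28.6, 31.7 and 27.0 CPM with control siRNA. The groups did not overlap, and IRS1 was 1.44-fold higher, with a log2 fold change of 0.53 ± 0.074 (SE; edgeR, adjusted p = 1.38e-05). IRS2 (chromosome 13, 109752698 to 109786568, minus strand) had 23.8, 21.1 and 23.8 CPM with SNHG5 siRNA, against 18.4, 21.0 and 21.3 CPM with control siRNA. Its groups overlapped at SNHG5 siRNA replicate 2, and its log2 fold change of 0.18 (95% interval 0.00070 to 0.36) did not pass (adjusted p = 0.102). It passed without SNHG5 siRNA replicate 2 (0.24, adjusted p = 0.0162) and with the GC trend removed (0.25, adjusted p = 0.0377). Whether the adaptors differ from each other in their change was not tested.

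**Figure D3:**
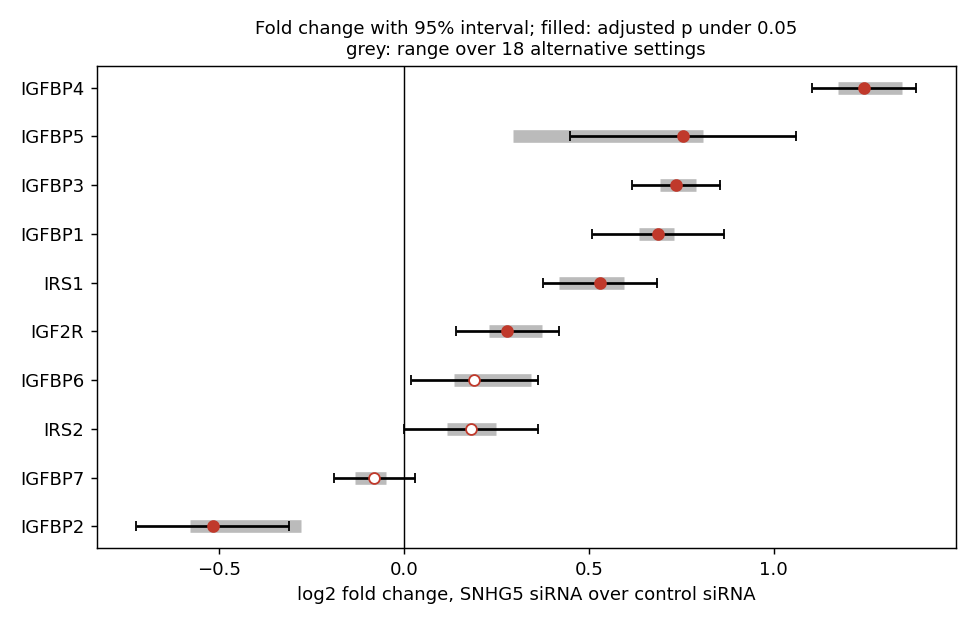
Log2 fold change of SNHG5 siRNA over control siRNA (horizontal axis) with its 95% interval (black); filled points had an adjusted p under 0.05 and open points did not, and the grey bar is the range over the 18 alternative settings. IGFBP4 lies farthest to the right at 1.25 and IGFBP2 farthest to the left at -0.52, and the grey bar of no gene crosses 0.

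Other genes of the IGF pathway moved in both directions. Of 59 further genes tested from lists of ligands, receptors, binding proteins, proteases, adaptors, kinases and imprinted growth genes, 10 rose, 19 fell and 30 did not pass, with a median log2 fold change of 0.0020. The called share was 49.2%, beside 40.2% of all genes tested, with 16.9% higher (20.3% of all genes) and 32.2% lower (19.9% of all genes). These shares describe the lists and were not tested. The receptors that signal were among those that did not pass. IGF1R, the signalling receptor of IGF1 and IGF2, had 27.5 ± 3.12 CPM with SNHG5 siRNA and 25.9 ± 1.76 CPM with control siRNA, a log2 fold change of 0.086 (95% interval -0.098 to 0.27). INSR, the insulin receptor, had 18.3 ± 1.66 and 18.5 ± 0.876 CPM in the same order, with an interval of -0.19 to 0.17. IGFALS, the acid-labile subunit that joins IGFBP3 and IGFBP5 in the blood, had at most 1 count in any library.

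Genes of binding protein cleavage gave 1 higher, 4 lower and 3 not passing of 8. This was 12.5% higher and 50% lower, beside 20.3% and 19.9% of all genes tested. PAPPA, which cuts IGFBP4 and is named for its presence in pregnancy plasma, had 27.0 ± 2.99 CPM with SNHG5 siRNA and 34.9 ± 1.56 CPM with control siRNA, or -0.37 on the log2 scale (edgeR, adjusted p = 0.00154). STC2, stanniocalcin 2, which inhibits PAPPA, had 200.1 ± 12.2 CPM with SNHG5 siRNA and 319 ± 12.7 CPM with control siRNA (-0.67, adjusted p = 1.66e-08). ADAM9 (-0.36) and HTRA1 (-0.31), proteases reported to cut binding proteins, also fell. HTRA1 did not pass on log2(FPKM + 1) with no filter (-0.22, limma, adjusted p = 0.0770). STC1, named after its value was seen as the 1 gene of the list that rose, had 0.29.

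The receptor adaptors other than IRS1 and IRS2 gave 4 higher, 3 lower and 6 not passing of 13. The shares were 30.8% higher and 23.1% lower, beside 20.3% and 19.9% of all genes tested. GRB10, an imprinted adaptor that restrains insulin and IGF receptors, had 253 ± 6.59 CPM with SNHG5 siRNA and 173 ± 5.01 CPM with control siRNA (0.55, adjusted p = 7.82e-08). SH2B2 (-0.81) and SHC3 (-0.52) fell, both at levels under 10 CPM. On FPKM with limma, SHC3 did not pass with 1 added (-0.091, adjusted p = 0.152) or 0.1 added (-0.39, adjusted p = 0.135). With 1 added and no filter SHC3 passed (-0.091, limma, adjusted p = 0.0265) and SH2B2 did not (-0.27, adjusted p = 0.0544). Named after their values were seen, SH2B1 (0.38), GAB2 (0.35) and the phosphatase gene PTPN11 (0.34) rose, and SHC1 (-0.30) fell.

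Among PI3-kinase, AKT and TOR genes, 4 rose, 9 fell and 13 did not pass of 26, with a median of 0.018. The shares were 15.4% higher and 34.6% lower, beside 20.3% and 19.9% of all genes tested. The falls included DEPTOR, an inhibitor of the TOR kinase (-1.17), PIK3CD, a catalytic PI3-kinase subunit (-0.91), RPTOR, a scaffold of TOR complex 1 (-0.80), and PIK3R3, a regulatory subunit (-0.62). Mean levels with SNHG5 siRNA and control siRNA were 4.39 and 9.86 CPM for DEPTOR and 1.55 and 2.90 CPM for PIK3CD. RPTOR had 27.7 and 48.2 CPM and PIK3R3 2.14 and 3.29 CPM, in the same order. PIK3CD did not pass on any of the 3 FPKM fits (-0.48 with 0.1 added, limma, adjusted p = 0.0787). DEPTOR was -0.49 on log2(FPKM + 1), where it was called. Named after their values were seen, AKT1 (0.50), PHLPP1 (0.43) and AKT1S1 (0.23) were among those that rose. Of the 4 FOXO genes, whose products AKT keeps out of the nucleus, 0 were called by edgeR, where 40.2% of all genes tested were called. FOXO3 had 0.16 and an unadjusted edgeR p of 0.0320, and the other FOXO genes had one above 0.05. IGF2BP2, which binds IGF2 messenger RNA, fell by 0.16 on the log2 scale (edgeR, adjusted p = 0.0212). It missed the threshold when any of 4 libraries was left out, SNHG5 siRNA replicate 1 (-0.16), SNHG5 siRNA replicate 3 (-0.16), control siRNA replicate 2 (-0.16) and control siRNA replicate 3 (-0.13), and on FPKM (-0.10 with 1 added). Of the imprinted growth genes, GRB10 rose, and CDKN1C (-1.77) and PHLDA2 (-0.41) fell, with 1 more tested gene not passing. The called share of these 4 genes was 75%, beside 40.2% of all genes tested. CDKN1C, at 0.253 ± 0.180 CPM with SNHG5 siRNA and 0.857 ± 0.216 CPM with control siRNA, did not pass without control siRNA replicate 3 (-1.56, edgeR, adjusted p = 0.0516) or on FPKM (-0.30 with 1 added). PHLDA2 did not pass on log2(FPKM + 1) with no filter (-0.27, limma, adjusted p = 0.101).

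**Figure D4:**
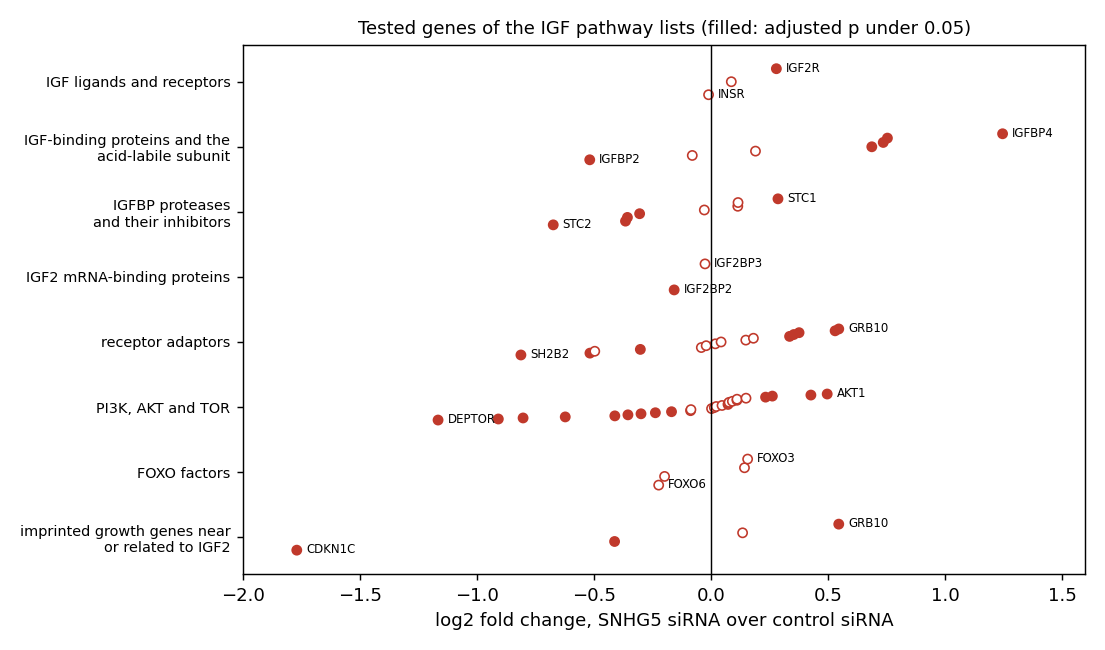
Log2 fold change of SNHG5 siRNA over control siRNA (horizontal axis) of every tested gene of 8 IGF pathway lists (rows), filled where the adjusted p was under 0.05; the lowest and highest gene of each list are named. Binding proteins run from IGFBP2 at -0.52 to IGFBP4 at 1.25, and 3 of the protease and inhibitor genes lie between -0.37 and -0.31 with STC2 at -0.67.

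The genes nearest in pattern were sought for the 3 members with the smallest p, by the root mean square difference of log2 CPM, centred by gene, over the 6 libraries among tested genes with a mean of at least 5 CPM. Those nearest to IGFBP4 were HABP4 (difference 0.048), OGFR (0.058) and MGLL (0.063), with log2 fold changes of 1.20, 1.24 and 1.20. Those nearest to IGFBP3 were ZFYVE21 (0.029), AES (0.031) and FAM32A (0.036), and those nearest to IRS1 were TCEANC2 (0.030), CDK16 (0.034) and GINS4 (0.046). With 2 groups of 3 libraries, genes of nearly equal fold change score as alike.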

How the data were processed

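RNA was measured by sequencing (SMARTER mRNA-seq kit, per the labels' protocols) in 6 libraries, 3 per group. The authors deposited a table of raw counts per gene and a table of FPKM; per the submitters' processing notes, reads were trimmed with Trimmomatic and the build was GRCh38. The aligner, the counting program, the annotation and any use of strand are not given in the sources used here. Both tables held 0 columns of other samples. Counts were scaled by TMM and tested with edgeR 4.0.16 (R 4.3.3; filterByExpr, quasi-likelihood test, 2-sided, Benjamini-Hochberg over 12508 genes, adjusted p under 0.05), SNHG5 siRNA minus control siRNA. The test was tried on simulated counts of 12508 genes, with 50 genes changed at each fold of 1.3, 1.5, 2 and 3. It recovered 38, 45, 42 and 49 of these in that order and called 13 unchanged genes. Far fewer genes changed there than were called here, and no length trend was simulated, so its error rate in these data was not tested. SE and 95% intervals come from the same fit. The authors' FPKM were used for levels between genes and, with limma 3.58.1 on log2(FPKM + 1) or log2(FPKM + 0.1), as an alternative. Coordinates, lengths and GC content come from GENCODE v29 (19266 names matched). Count entries whose names read as dates (27, with 0.257% of counts) stayed in the tests. H19, MEG3 and KCNQ1OT1, and protein sequences, were not analysed here.

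The members and lists were chosen with earlier results of these data known. Named genes were the members, a fixed set (IGF1, INS, IGF1R, INSR, IGFBP1, IGFALS, PAPPA, STC2), up to 4 called genes per list by absolute log2 fold change, and 3 nearest patterns for each of 3 members. The other settings were DESeq2 1.42.0 size factors or test, upper-quartile scaling, no filter, a replicate block, removal of length or GC trends (with and without the block), 3 FPKM fits, and leaving out each library.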

Additional observations from a re-analysis of the deposited data

How the results depend on the processing

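Over the 18 alternative settings, IGFBP1, IGFBP3, IGFBP4, IGFBP5 and IRS1 kept their direction and were called in each. IGFBP2 and IGF2R kept theirs and were called in 17, missing on log2(FPKM + 1) with no filter, and the cause was not tested. IGFBP6 was called in 7, IRS2 in 3 and IGFBP7 in 1, each with its direction kept. Among the 10 members 5 to 8 were called (6 to 8 with 1 library left out), and over all genes 3581 to 6025 (3991 to 5608 with 1 library left out). The 5 members were on log2(FPKM + 1) with no filter, where 22.8% of all genes were called. The 8 members were with the GC trend removed, where 40.9% were called, and without SNHG5 siRNA replicate 2, where 44.4% were called. Among all the pathway genes, here with the members included, 35 were called in the main fit and 25 to 41 in the other settings. The 25 were on log2(FPKM + 1) with no filter. The 41 were reached without SNHG5 siRNA replicate 2, and also with the length trend removed beside the replicate block. The count did not always move with the share over all genes. Counts with no filter gave 38, where 5232 of 15924 genes were called, against 5026 of 12508 in the main fit. INSR, never called, changed sign on FPKM (0.015 with 1 added, with or without the filter, and 0.021 with 0.1 added), and with a library left out it ran from -0.074 to 0.055. With upper-quartile scaling 39.9% of all calls were higher, against 50.5% with TMM, and the median of all genes moved to -0.046. With the replicate block 5714 genes and 6 members were called, and with the block beside the GC or length trend 8 and 7 members. The block changed no member's call. Deviations of same-numbered libraries had correlations of 0.046, 0.13 and 0.026. SNHG5 siRNA replicates 1 and 2 correlated best with the control library of the same number, and replicate 3 with control siRNA replicate 1 (0.084). Whether same-numbered libraries were pairs was not tested. Counts of IGF2 were too few for any setting to bear on it.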
